A study of Homo sapiens with 6 samples.

Results

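Cytosolic ribosomal proteins are the protein subunits of the ribosome that translates nuclear mRNA. Their genes were taken as every protein-coding symbol that starts with RPL or RPS and goes on with the usual number and letter, together with RPLP0, RPLP1, RPLP2 and RPSA, and where several rows shared an Ensembl identifier the row with the most counts was used. The tables held 85 such genes among 39168 identifiers, 53 of the large subunit and 32 of the small subunit. The symbol rule matched 87 genes of the annotation, and 2 of these were not analysed here. Of the 85 genes, 76 were the standard subunits and 9 were paralogs or tissue-restricted copies.

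The cells were CAL62, an established line of anaplastic thyroid carcinoma (ATC), labelled wild type in both groups. The erianin group received 50 nM erianin, a bibenzyl compound from Dendrobium orchids, and the control group received DMSO, the solvent, at an equal concentration. Both groups were harvested after 48 h as replicates 1 to 3 from 3 replicate experiments, which gave 3 RNA-seq libraries a group. All cells came from 1 line, so the p-values measure the spread between these libraries and not between tumours.

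Ribosomal proteins are made in near-equal numbers since almost all of them have a single place in each ribosome. Their mRNAs are abundant, stable and short, and most start with a cytosine followed by an unbroken run of pyrimidines, the terminal oligopyrimidine (TOP) motif, through which mTORC1 and the RNA-binding protein LARP1 control their translation and stability. Proliferating tumour cells depend on a high output of ribosomes, and free RPL5 and RPL11 bind MDM2 when assembly is disturbed.

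The start sites of several genes described below are printed first, since a pyrimidine run near the start is a sequence feature that most of the group shares. Each line gives 10 bases before and 20 bases from the annotated RefSeq start (GRCh38.p14), on the gene's own strand, with the longest run of C and T in capitals. RPL4, at chr15:66504836-66504865 (minus strand), RPL12, at chr9:127451387-127451416 (minus strand), and RPL28, at chr19:55385922-55385951 (plus strand), are shown because they fell with erianin. RPLP1, at chr15:69452808-69452837 (plus strand), RPS12, at chr6:132814559-132814588 (plus strand), and RPS21, at chr20:62387093-62387122 (plus strand), are shown because they varied most between the DMSO libraries among genes with an entry and a TOP-like run. RPS27, at chr1:153990752-153990781 (plus strand), its paralog RPS27L, at chr15:63157458-63157487 (minus strand), and RPS27A, at chr2:55231893-55231922 (plus strand), are shown because their values parted.
RPL4: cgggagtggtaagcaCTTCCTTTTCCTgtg
RPL12: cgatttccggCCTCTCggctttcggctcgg
RPL28: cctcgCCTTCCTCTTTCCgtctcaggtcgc
RPLP1: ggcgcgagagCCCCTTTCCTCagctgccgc
RPS12: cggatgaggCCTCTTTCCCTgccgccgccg
RPS21: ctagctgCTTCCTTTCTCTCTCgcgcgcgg
RPS27: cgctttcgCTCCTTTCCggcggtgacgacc
RPS27L: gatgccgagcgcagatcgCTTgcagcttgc
RPS27A: agtgacacacaagacccagaCTCTTCCCTa
The RPLP1 run began at the annotated start itself and the runs of RPS12, RPS21 and RPS27 spanned it, while RPS27L had only CTT. The RPL12 run had 6 bases, below the length of 7 counted next. The runs of RPL4 and RPS27A began 5 and 10 bases after the annotated start. Of the 85 genes, 69 matched a promoter entry, and 54 of these (78.3%) held an unbroken run of at least 7 pyrimidines, made of C and T in any order on the gene's strand, anywhere in the 30 bases. The share among all 27305 promoters was 19.1%, and the median longest run was 10 bases against 4. The letters TTCT, searched on the gene's strand and overlapping such runs, stood in 27 of the 69 windows (39.1%) and in 12.8% of all promoters. These matches describe letters near 1 annotated start a gene and do not show which start the cells used.

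Library totals ran from 25776301 to 34107727 counts. DMSO replicate 3 stood apart from the other libraries: the common biological coefficient of variation over all genes was 0.139 with it and 0.0421 without it. Its rows with an identifier held 59.1% of the full sum of TPM, a unit scaled by gene length and library total, against 72.6% to 78.3% in the others. The reason was not tested, and values without that library are given beside the members named below whose call or sign changed when it was left out. Of 7 thyroid markers only 2 reached 1 CPM (read counts scaled to an effective library size) as a mean over libraries, whereas 4 of 5 epithelial and all 5 mesenchymal markers did. The 5 leukocyte and the 3 endothelial markers each summed to under 1 CPM in every library. The thyroid sum was 644 to 742 CPM in DMSO and 421 to 435 CPM in erianin libraries, the mesenchymal sum 6639.6 to 8582 and 4249 to 4807 CPM, and the epithelial sum 2189.7 to 2856 and 2315 to 2486 CPM, and their part in the results below was not tested. Nearly all of the thyroid sum was PAX8, at means of 676 CPM with DMSO and 428 CPM with erianin, while FOXE1 had 1.57 and 1.61 CPM. Among mesenchymal markers FN1 had means of 5817 and 3353 CPM, VIM 1289 and 932 CPM and CDH2 54.3 and 46.9 CPM. SPARC had 152 and 160 CPM and ZEB1 24.3 and 24.2 CPM.

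Ribosomal protein genes took 11.4%, 11.2% and 8.55% of all counts in DMSO replicates 1 to 3 and 10.1%, 9.72% and 10.1% in erianin replicates 1 to 3. The 3 erianin libraries thus lay between the pair DMSO 1 and 2, which was higher, and DMSO 3, which was lower. The mean share was 10.4% ± 1.61 (SD, n = 3) with DMSO and 9.96% ± 0.209 (SD, n = 3) with erianin, a difference of -0.44 percentage points that was smaller than the spread of the DMSO libraries. The difference was -1.36 percentage points without DMSO 3, -0.0312 without DMSO 2 and 0.0773 without DMSO 1, so its sign turned with 1 control library. The 95% Wilson interval of a share reached at most 0.0123 percentage points to either side and covers counting error only. A share of counts is relative to all other RNA in the library, so less ribosomal protein mRNA per cell and more of other mRNAs cannot be told apart, nor can either be told from a smaller fraction of cells with high levels.

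**Figure D1:**
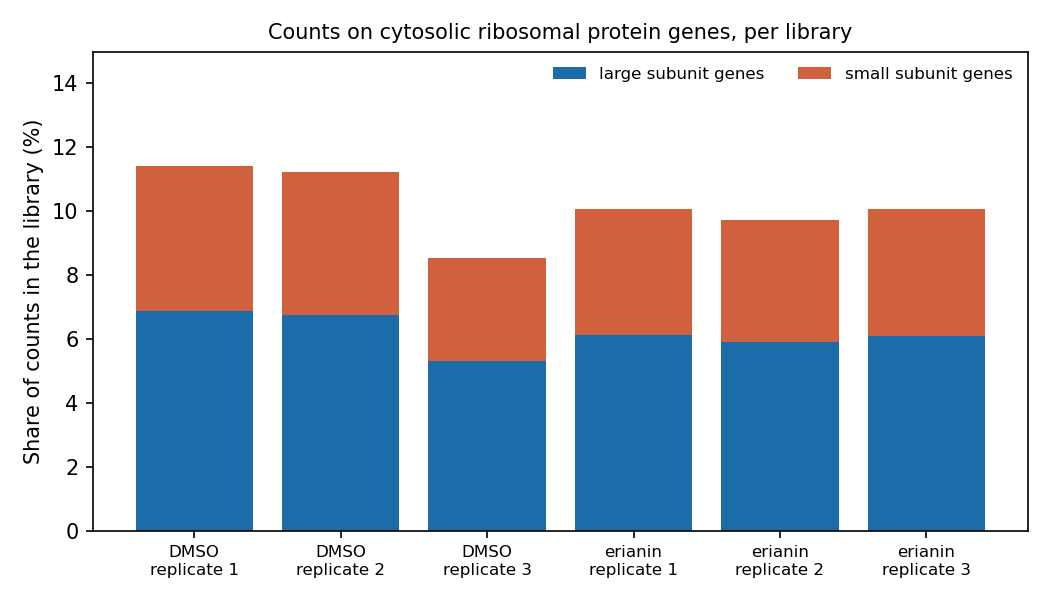
Share of all counts (percent, y axis) on 53 large and 32 small subunit genes, stacked, in each of the 6 libraries (x axis). DMSO replicate 3 stands lowest at 8.55%, DMSO 1 and 2 highest at 11.4% and 11.2%, and the erianin libraries between 9.72% and 10.1%.

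Ribosomal protein genes were not all lower by a like amount in DMSO replicate 3. Among the 78 genes whose mean reached 10 CPM, its log2 ratio to the mean of DMSO 1 and 2 ran from -2.87 for RPS29 to 0.48, with a median of -0.48 and an SD over genes of 0.61. The log2 ratio of DMSO 1 to DMSO 2 ran only from -0.30 to 0.20, with an SD of 0.082. DMSO 3 was below both other DMSO libraries in 63 genes and above both in 12, and it was under a log2 ratio of -1 in 19 (24.4%), against 2.38% of all 8543 genes at that level. The median over all those genes was -0.01 and the SD 0.46, so an uneven spread in DMSO 3 was not particular to ribosomal protein genes. The shares of all genes below or above both other DMSO libraries are not given here.

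The genes lowest in DMSO 3 came from both subunits. In what follows the values of a gene are given in the order of replicates 1, 2 and 3 of each group, and an error after a log2 fold change is its standard error from the fit (n = 3 and 3, or 2 and 3 without DMSO 3). RPS29, a small zinc-binding protein of the 40S head, had 479, 589 and 72.9 CPM with DMSO and 294, 330.2 and 380.4 CPM with erianin. RPS21, a small subunit protein, had 1024, 1144 and 219.7 CPM with DMSO and 741, 799.9 and 859 CPM with erianin. RPLP1, an acidic stalk protein that helps recruit elongation factors, had 1889.6, 1914 and 429.7 CPM with DMSO and 1429.9, 1437 and 1560.4 CPM with erianin. In each of these genes 1 DMSO library lay far below every other library and the other DMSO pair lay above all erianin libraries. RPS12, a small subunit protein, had 984, 1017 and 267 CPM with DMSO and 921, 887 and 942 CPM with erianin, with the same order. With all libraries none of these was called, at log2 fold changes of -0.18 for RPS29, 0.01 for RPS21 and 0.28 for RPS12, and without DMSO 3 all were lower, at -0.68, -0.44 and -0.13 (edgeR adjusted p = 1.88e-10, 2.34e-09 and 0.00576). RPS21 and RPS29 were chosen after their values were seen.

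**Figure D2:**
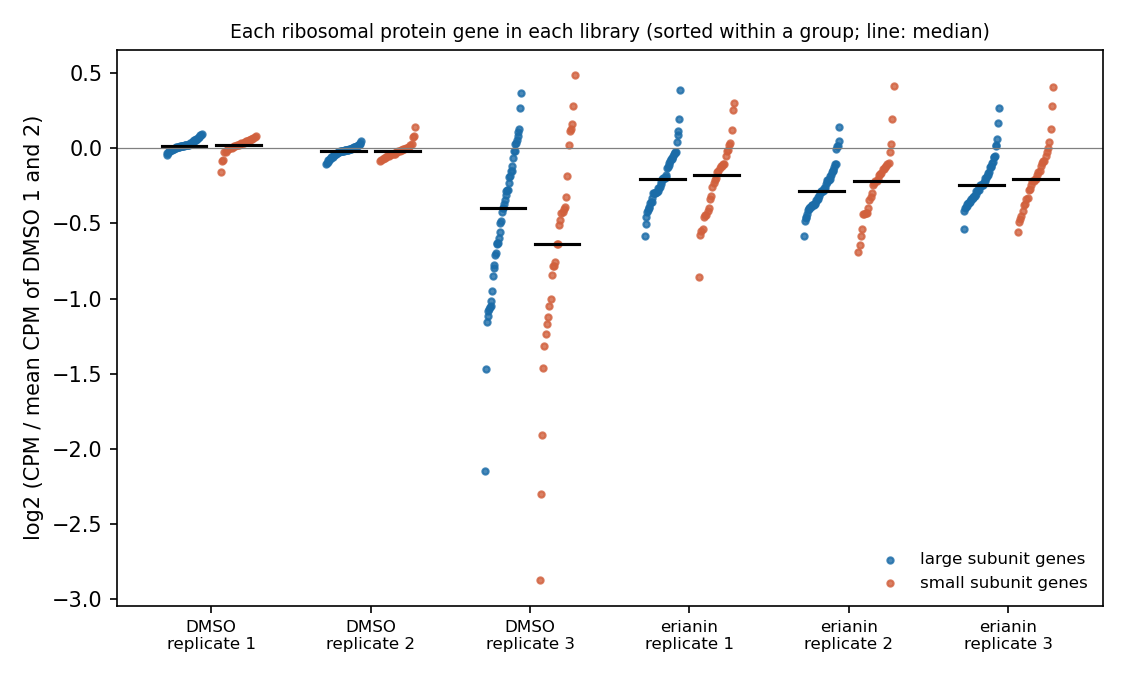
Log2 ratio of each gene's CPM to the mean CPM of DMSO 1 and 2 (y axis) in each library (x axis), for the 48 large and 30 small subunit genes whose mean reached 10 CPM, each point 1 gene, with the subunit median as a line. DMSO 3 spreads from -2.87 to 0.48, while the points of the 3 erianin libraries lie mostly below 0 and close together.

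With all 6 libraries, 6 of the 82 tested ribosomal protein genes (7.32%) were lower with erianin and none was higher at an adjusted p under 0.05 (edgeR's quasi-likelihood test with Benjamini-Hochberg adjustment over 12821 genes). In the same test 7.69% of all genes were called lower and 7.22% higher, so the count of lower calls was near the background. No member passed with a log2 fold change over 0.5, where 3.36% of all genes passed as lower and 5.37% as higher. At an unadjusted p under 0.05, 14 members were lower and 3 higher (15.6% and 15.3% of all genes), and DESeq2 called 8 lower and 1 higher (9.40% and 8.37%). The median log2 fold change over the 82 genes was -0.10, with 54 negative and 28 positive, beside 0.00 over all genes, and it was -0.09 to -0.12 without any 1 erianin library, -0.01 without DMSO 1 or DMSO 2 and -0.23 without DMSO 3. With upper-quartile factors it was -0.04, with 46 negative and 36 positive, where the median over all genes was 0.05. The 6 calls were lost without any 1 of the other 5 libraries: 0 members were then called lower.

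The group ranges did not overlap, with every erianin library below every DMSO library, in 18 members, beside 19.3% of all genes and 33.3% of the 2199 genes whose mean reached 100 CPM, and with every erianin library above in 6 (7.32%), beside 19.5%.

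The 6 genes that fell were 5 of the large subunit and 1 of the small. RPL4, whose protein lines the exit tunnel, had 2185, 2132 and 2125 CPM with DMSO and 1757, 1661 and 1709.8 CPM with erianin. All erianin values lay below all DMSO values, the DMSO libraries were close to each other, and the log2 fold change was -0.33 ± 0.07, with an edgeR adjusted p of 0.0185. RPL12, at the base of the stalk, had 2291, 2188 and 2018 CPM with DMSO and 1711, 1706 and 1716 CPM with erianin. Its groups did not overlap, and it fell by 0.34 ± 0.07 on the log2 scale (edgeR adjusted p = 0.0241). RPL28, a large subunit protein, had 2006, 1942 and 2023 CPM with DMSO and 1643, 1552 and 1571 CPM with erianin, again without overlap, and fell by 0.33 ± 0.07 on the log2 scale (edgeR adjusted p = 0.02).

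RPL23A, which sits at the rim of the exit tunnel where nascent-chain factors dock, had 279, 245 and 267 CPM with DMSO and 228, 201 and 207 CPM with erianin and fell by 0.31 ± 0.08 on the log2 scale (edgeR adjusted p = 0.0423). RPL37, a zinc-binding protein chosen here after its values were seen, had 1389, 1353 and 1425 CPM with DMSO and 1170.4, 1128 and 1129 CPM with erianin and fell by 0.28 ± 0.07 on the log2 scale (edgeR adjusted p = 0.0294). In RPL23A and RPL37, as in RPL4 and RPL28, DMSO 3 was within the range of the other DMSO libraries or close to it. RPS2, near the mRNA entry channel, had 8881, 8598 and 6664 CPM with DMSO and 5865, 5586 and 5949.6 CPM with erianin and fell by 0.47 ± 0.12 on the log2 scale (edgeR adjusted p = 0.0359). RPS2 was the most counted member, its groups did not overlap even with DMSO 3 lowest among the controls, and 25.6% of its exon bases overlapped another annotated gene of the same strand, AC005363.1.

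**Figure D3:**
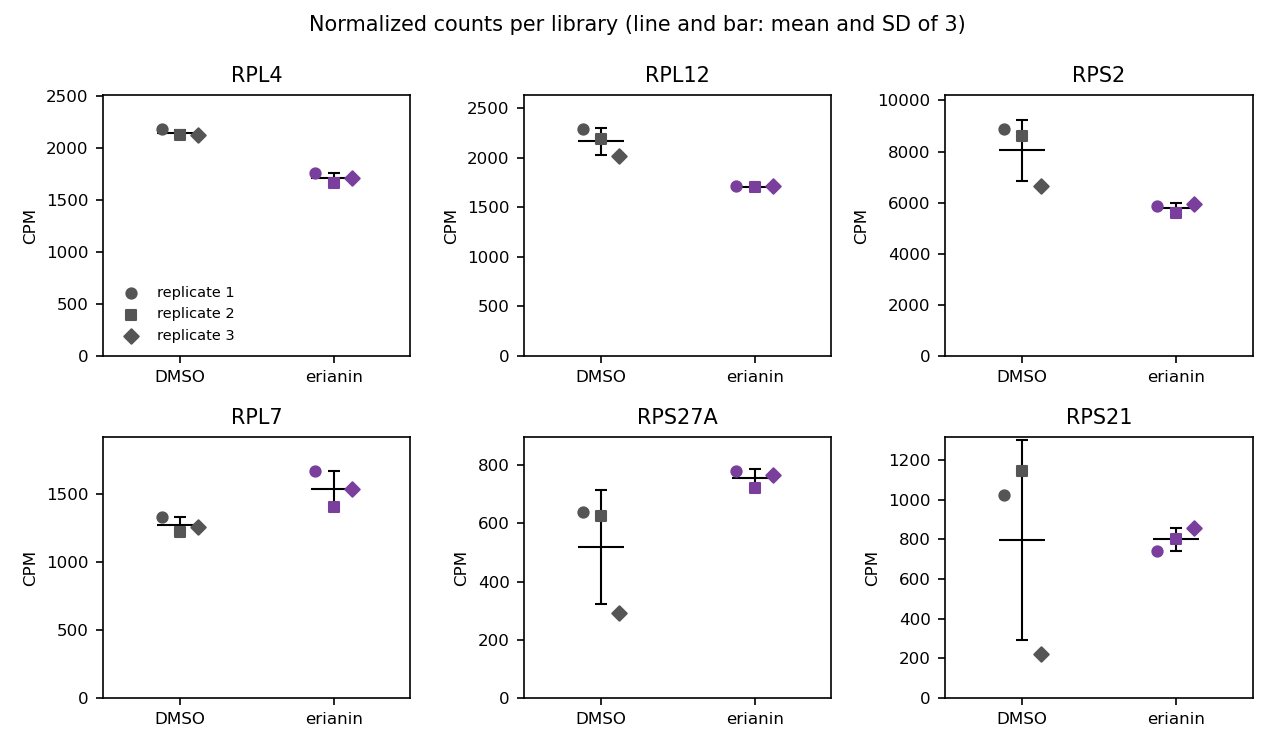
CPM (y axes, from 0) in each library of the DMSO and erianin groups for RPL4, RPL12, RPS2, RPL7, RPS27A and RPS21, with 1 marker shape a replicate number and the mean ± SD of 3 as a line and bar. The groups separate in all but RPS21, where DMSO 3 at 219.7 CPM lies below every erianin library and DMSO 1 and 2 above.

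Without DMSO replicate 3, 60 of the 82 members (73.2%) were lower and 5 (6.10%) higher at an edgeR adjusted p under 0.05, where 27.7% of all 13053 genes tested were lower and 27.5% higher. All 6 genes named above remained lower. The median standard error of the members went from 0.14 to 0.041, and the median log2 fold change was -0.23, beside 0.02 over all genes. Most of these differences were small: 4 members were lower and 1 higher by more than 0.5 on the log2 scale, beside 6.11% and 11.4% of all genes. The DMSO group then held 2 libraries, and the choice to leave out DMSO 3 was 1 of 6 such fits.

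Highly counted genes in general were called lower more often than all genes together. Of those 2199 genes, 16.7% were lower and 4.05% higher with all libraries, their median log2 fold change was -0.10, and the 74 members at that level had a median of -0.12. Of the 2199, 55.6% were lower and 19.8% higher without DMSO 3, with a median log2 fold change of -0.14. Of the 74 members, 60 (81.1%) were lower and 3 higher, with a median of -0.25.

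**Figure D4:**
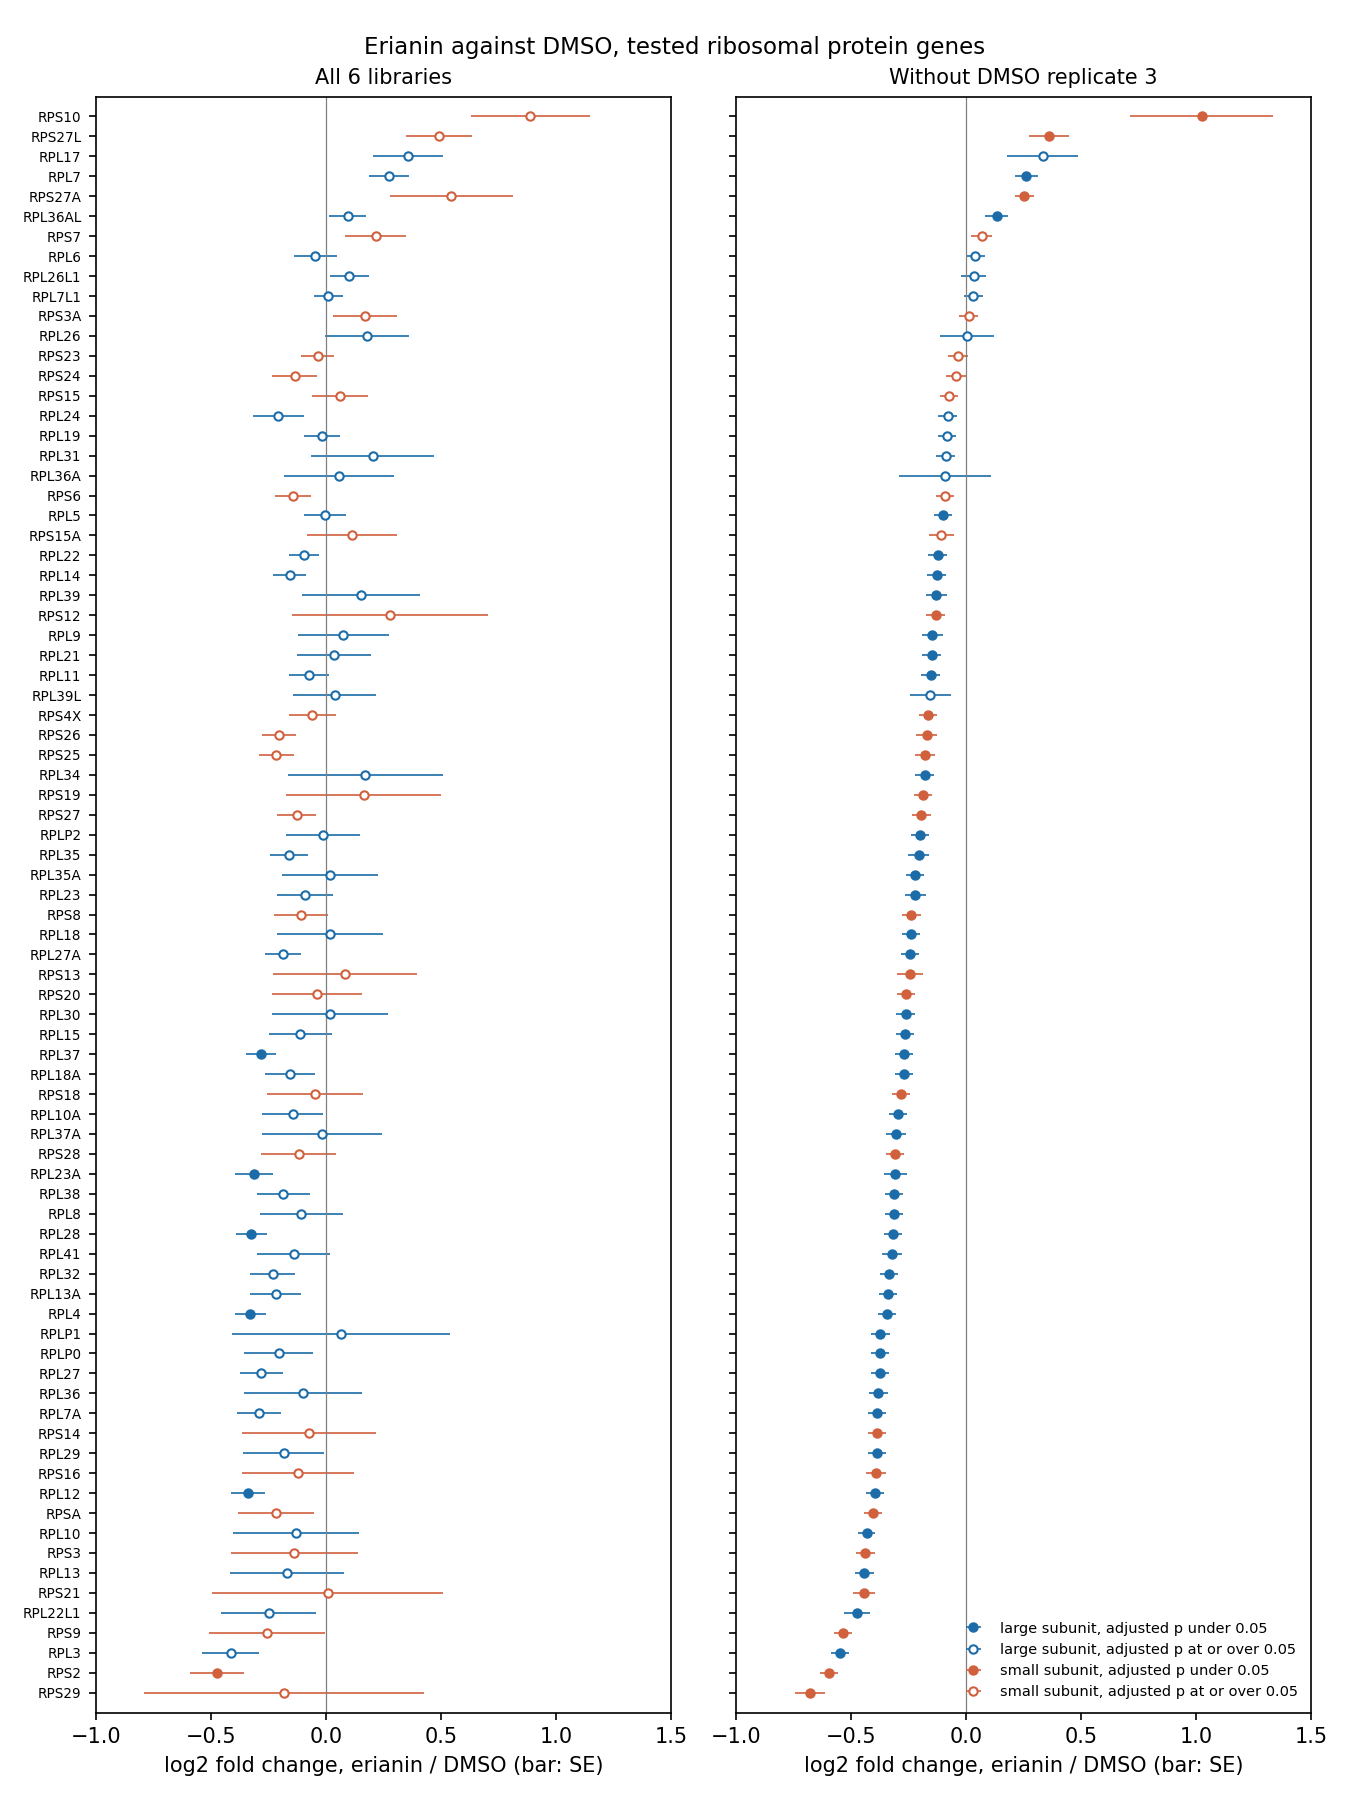
Log2 fold change of erianin against DMSO with its SE (x axes) for 80 of the tested genes (y axis, ordered by the right panel), with all 6 libraries (left) and without DMSO replicate 3 (right), filled where the adjusted p is under 0.05. On the left 6 points are filled, all below 0, and on the right 58 are filled below 0 and 5 above.

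RPL3, which reaches toward the peptidyl transferase centre, had 6019.9, 6068 and 4508 CPM with DMSO and 4254, 4028 and 4163 CPM with erianin, with all erianin values below all DMSO values. Its log2 fold change was -0.42 ± 0.12 with all libraries (edgeR adjusted p = 0.0603) and -0.55 ± 0.04 without DMSO 3 (edgeR adjusted p = 1.42e-13). RPS29, RPS2 and RPS9 were the other members lower by more than 0.5 without DMSO 3, at -0.68, -0.60 and -0.53 on the log2 scale. RPS9, which lies near the mRNA entry, had 1561, 1501 and 738 CPM with DMSO and 1055, 1022 and 1105 CPM with erianin. Its erianin libraries lay between the DMSO pair and DMSO 3, so with all libraries its log2 fold change was -0.26 ± 0.25, with an edgeR adjusted p of 0.543.

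Log2 fold changes lay above 0 in 28 of the 82 tested members with all libraries, none called, and some of these follow. RPL7, a large subunit protein, had 1332, 1217 and 1257 CPM with DMSO and 1666, 1404 and 1533 CPM with erianin, so every erianin library was above every DMSO library. Its log2 fold change was 0.27 ± 0.09 (edgeR adjusted p = 0.0732), and 0.26 ± 0.05 without DMSO 3 (edgeR adjusted p = 3.44e-05), but 0.04 and not called when a GC-content offset was added to that fit, an alternative chosen after seeing the data. RPS27A, made as a fusion with ubiquitin, had 639, 627 and 291 CPM with DMSO and 780.3, 724 and 767 CPM with erianin. Both groups were again apart, DMSO 3 lay far below the other controls, and the log2 fold change was 0.54 ± 0.27 (edgeR adjusted p = 0.214), or 0.25 ± 0.04 without DMSO 3 (edgeR adjusted p = 3.24e-06) and 0.13 with the GC-content offset added. Values of RPL34, RPL31 and RPS3A also lay above 0, at 0.17 ± 0.34, 0.20 ± 0.27 and 0.17 ± 0.14, none called, and each had a low DMSO 3 at log2 ratios of -1.47, -1.11 and -0.51. Without DMSO 3 RPL34 was lower, at -0.18 ± 0.04 (edgeR adjusted p = 0.000398), and RPL31 and RPS3A were not called, at -0.09 ± 0.04 and 0.01 ± 0.04. RPS7, which also binds MDM2, had 463, 479.7 and 339 CPM with DMSO and 511, 462 and 514 CPM with erianin and overlapping groups (log2 fold change 0.22 ± 0.13, edgeR adjusted p = 0.322, and 0.07 ± 0.04 without DMSO 3, edgeR adjusted p = 0.188).

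RPS10, a protein of the 40S head and a target of the collision sensor ZNF598, showed the highest log2 fold change but rested on few counts. It had 0.862, 0.863 and 1.12 CPM with DMSO and 1.52, 2.26 and 1.51 CPM with erianin, with a log2 fold change of 0.89 ± 0.26 (edgeR adjusted p = 0.0581) and 1.03 ± 0.31 without DMSO 3 (edgeR adjusted p = 0.00564). In the annotation 39.4% of its exon bases lie also in the read-through gene RPS10-NUDT3, and 32.7% of those of RPL17 in RPL17-C18orf32. RPL17 had 4.39, 4.87 and 4.53 CPM with DMSO and 6.59, 4.92 and 6.14 CPM with erianin, and RPL36A, which overlaps RPL36A-HNRNPH2, had 2.60 to 4.44 CPM. All 3 read-through genes were listed at 0 in every library, as were 79 replication-dependent histone genes, so a low value in these rows need not mean a low level of the mRNA. RPS10 and RPL17 were chosen after their values were seen.

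None of RPL5, RPL11 and RPSA, whose proteins have roles outside the ribosome, nor RPS6 was called with all libraries. RPL5, RPL11 and RPSA were called lower without DMSO 3. RPL5 had 734, 756 and 615 CPM with DMSO and 697, 682 and 716 CPM with erianin and RPL11 had 966, 965 and 823 CPM with DMSO and 908, 866 and 841 CPM with erianin. Both had 1 low control, DMSO 3, and log2 fold changes of -0.01 ± 0.09 and -0.08 ± 0.09 with edgeR adjusted p of 0.977 and 0.605. Without DMSO 3 these were -0.10 ± 0.04 and -0.15 ± 0.04, with edgeR adjusted p of 0.0367 and 0.00175. RPS6, the substrate of S6 kinase, had 1629.8, 1651 and 1835 CPM with DMSO and 1616, 1489 and 1530.3 CPM with erianin, with its erianin libraries below its DMSO libraries (log2 fold change -0.14 ± 0.08, edgeR adjusted p = 0.268, and -0.09 ± 0.04 without DMSO 3, edgeR adjusted p = 0.0556). RPSA, also known as the laminin receptor precursor, had 2575, 2505 and 1631 CPM with DMSO and 1902, 1923 and 1951 CPM with erianin and a log2 fold change of -0.22 ± 0.16 (edgeR adjusted p = 0.42), or -0.40 ± 0.04 without DMSO 3 (edgeR adjusted p = 1.1e-10).

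Among the stalk genes DMSO 3 was lowest, relative to the other controls, in RPLP1. RPLP0, the stalk base, had 6456, 6266 and 4315 CPM with DMSO and 4956, 4827 and 4995 CPM with erianin, and RPLP2, an acidic partner of RPLP1, had 1260.0, 1269 and 819 CPM with DMSO and 1117, 1072 and 1126 CPM with erianin. The log2 ratio of DMSO 3 to the other DMSO libraries was -0.56 for RPLP0, -0.63 for RPLP2 and -2.15 for RPLP1. Their log2 fold changes were -0.21 ± 0.15, 0.06 ± 0.47 and -0.01 ± 0.16 for RPLP0, RPLP1 and RPLP2 with all libraries, none called, and -0.37, -0.37 and -0.20 without DMSO 3, all called lower. RPLP1 therefore changed sign with that library.

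Large and small subunit genes were compared by their medians, as a description. The median log2 fold change was -0.10 over 51 large and -0.07 over 31 small subunit genes, a difference of -0.03. The quartiles were -0.20 and 0.03 for the large and -0.16 and 0.10 for the small subunit, so the distributions overlapped over most of their width. Without DMSO 3 the medians were -0.24 and -0.19, with 39 of 51 large (76.5%) and 21 of 31 small (67.7%) subunit genes lower and 2 and 3 higher. The difference of the medians was between -0.09 and -0.01 in every alternative fit. The ratio of large to small subunit counts was 1.51, 1.52 and 1.64 in DMSO replicates 1 to 3 and 1.56, 1.54 and 1.53 in erianin replicates 1 to 3. The one library with a different balance was DMSO 3, in which the median log2 ratio to the other DMSO libraries was -0.40 for the 48 large and -0.64 for the 30 small subunit genes at 10 CPM or more.

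Paralogs were set beside their parent genes. RPS27L, a paralog of RPS27 known as a p53 target, had 17.6, 16 and 12.5 CPM with DMSO and 20, 22.3 and 22.3 CPM with erianin, all erianin values above all DMSO values, and a log2 fold change of 0.49 ± 0.14 (edgeR adjusted p = 0.0581). Its parent RPS27 had 1083, 1014 and 920.3 CPM with DMSO and 967, 892 and 901 CPM with erianin and a log2 fold change of -0.13 ± 0.08 (edgeR adjusted p = 0.344). Without DMSO 3 RPS27L was higher, at 0.36 ± 0.09, and RPS27 lower, at -0.19 ± 0.04, with edgeR adjusted p of 0.000666 and 0.000227. Mean TPM, a level per unit of length, was 8.79 for RPS27L and 2409 for RPS27. Likewise RPL7L1, RPL39L and RPL22L1 had 105, 46.8 and 137 TPM beside 1288, 855 and 260.2 TPM of RPL7, RPL39 and RPL22. RPL26L1 and RPL36AL were above their parents, at 108 against 7.73 TPM for RPL26 and 992 against 2.75 TPM for RPL36A, and the rows of both parents held few counts.

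RPL22L1, the paralog of RPL22, had 156, 136 and 83.7 CPM with DMSO and 97.2, 106 and 113 CPM with erianin, and its log2 fold change was -0.25 ± 0.21 (edgeR adjusted p = 0.466). RPL22 had a log2 fold change of -0.10 ± 0.07 (edgeR adjusted p = 0.375), and both were called lower without DMSO 3, at -0.47 and -0.12. RPL7L1, RPL26L1, RPL36AL and RPL39L had log2 fold changes of 0.01, 0.10, 0.09 and 0.04, none called, and of these RPL36AL was called higher without DMSO 3, at 0.13 ± 0.05, although its groups overlapped. RPL39L turned sign in that fit, at -0.15 ± 0.09, and was not called. The parents RPL10, RPL26, RPL36A, RPL39 and RPS4X had log2 fold changes of -0.13, 0.18, 0.06, 0.15 and -0.06, none called with all libraries. Without DMSO 3 RPL10, RPL39 and RPS4X were lower, at -0.43, -0.13 and -0.16 (edgeR adjusted p = 2.21e-11, 0.0185 and 0.000502), and RPL26 and RPL36A were not called, at 0.01 and -0.09. The 3 genes not tested for low counts were RPL3L, RPL10L and RPS4Y1. RPL3L, a muscle paralog, had 2 to 10 counts a library, and RPL10L, a testis retrogene, had 1 count in erianin replicate 3 and 0 in the other 5 libraries, which allows up to 0.116 CPM there.

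Among the 78 members at 10 CPM or more, log2 fold change was lower where the level was higher. Spearman's correlation between mean log2 CPM and log2 fold change was -0.48 with all libraries and -0.50 without DMSO 3, across genes that share the same 6 libraries and are not independent replicates. The 39 members from 963 CPM up had medians of -0.14 and -0.32 in these fits and the other 39 had medians of 0.01 and -0.15. Spearman's correlation between GC content and log2 fold change was -0.30 and -0.48. The DMSO 3 ratio had Spearman correlations of 0.019 with level, -0.18 with GC content and -0.044 with gene length. Members with a pyrimidine run of at least 7 in the start window (53 tested) and those without (14 tested) had median log2 fold changes of -0.10 and -0.09 with all libraries, and -0.20 and -0.21 without DMSO 3.

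Per unit of length, RPS18, RPS12, RPS2, RPL41 and RPL12 had the highest mean TPM, at 4567, 4221, 2831, 2772 and 2634. The RPS12 value rests on a gene length of 0.101 times that of the median gene, as implied by counts over TPM, and RPL36AL rests on 0.0593 times. In the edgeR fit RPS18 and RPL41 had log2 fold changes of -0.05 ± 0.21 and -0.14 ± 0.16, neither called. Without DMSO 3 both were called lower, at -0.28 ± 0.04 and -0.32 ± 0.04. On the log2(TPM + 1) scale the median log2 difference of the members was 0.15, where all genes moved by 0.18. That scaling thus turned the sign of the members' median, and relative to all genes the members differed by -0.02. Limma on that scale called RPL7, RPS10 and RPS27L higher and none lower, where it called 17.3% of 11670 genes higher and 2.34% lower.

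Ribosomal protein genes with symbols of another form lie outside the rule. RACK1, a scaffold on the 40S head, had 3957, 4023 and 3031 CPM with DMSO and 2864, 2834 and 2888 CPM with erianin, without overlap (log2 fold change -0.36 ± 0.12, edgeR adjusted p = 0.0775). FAU, which encodes RPS30 fused to a ubiquitin-like protein, had 457, 468 and 158 CPM with DMSO and 404, 399 and 429 CPM with erianin, with DMSO 3 far below the rest. Neither was called with all libraries and both were lower without DMSO 3, at -0.48 for RACK1 and -0.18 for FAU on the log2 scale. Of 73 mitochondrial ribosomal protein genes, 1 was higher and 6 lower with all libraries, at a median of -0.01, with MRPS27 at -0.59, MRPS9 at -0.51 and MRPS18A at -0.60 past both thresholds, and 10 higher and 33 lower without DMSO 3, at a median of -0.10. For this list and those below, 7.22% of all genes were higher and 7.69% lower with all libraries. Without DMSO 3 the shares over all genes were 27.5% and 27.7%.

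A list of other genes whose mRNAs are known for TOP motifs was tested as 16 genes, of which 4 fell and none rose, at a median log2 fold change of -0.20. All of its members are translation factors but 3, namely TPT1, the histone chaperone NAP1L1 and the splicing factor HNRNPA1, none of which was called with all libraries. EEF2, the translocase of elongation, fell by 0.53 on the log2 scale, from 12734, 12217 and 10277 CPM in DMSO to 8182, 8085 and 8170.3 CPM in erianin replicates 1 to 3 (edgeR adjusted p = 0.014). EIF2S3, EIF3L and EEF1B2 also fell, and EEF1A1, the most counted of the list, had a log2 fold change of -0.08 ± 0.08 (edgeR adjusted p = 0.514, and -0.11 ± 0.04 without DMSO 3, edgeR adjusted p = 0.0173). Without DMSO 3, 10 of the 16 were lower and 2 higher. Among the 2199 genes at 100 CPM or more, 16.7% were lower and 4.05% higher with all libraries. Of these 2199 genes, 55.6% were lower and 19.8% higher without DMSO 3.

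Other initiation and termination factors numbered 22, of which EIF2S1, EIF4A2 and EIF1AX rose and none fell, at a median of 0.14, and of which 13 were higher and 8 lower without DMSO 3. Ribosome biogenesis factors numbered 38, of which NOP58 and NOP2 rose and NOB1 fell, at a median of 0.07, with NOP2 at only 0.328 to 1.20 CPM. NOP58, a core box C/D snoRNP protein, had 20.9, 23.9 and 26.2 CPM with DMSO and 35.8, 31.4 and 35.3 CPM with erianin, without overlap, and a log2 fold change of 0.53 ± 0.11 (edgeR adjusted p = 0.0224). The abundant nucleolar proteins NPM1, NCL and FBL had log2 fold changes of -0.08 ± 0.18, 0.10 ± 0.18 and -0.26 ± 0.10, none called. Without DMSO 3 NPM1 and NCL were higher, at 0.17 ± 0.04 and 0.36 ± 0.05, and FBL lower, at -0.34 ± 0.04, with edgeR adjusted p of 0.000862, 4.39e-08 and 5.23e-08. Without DMSO 3, 21 biogenesis genes were higher and 6 lower, at a median of 0.17. Among 11 RNA polymerase I genes TAF1D, RRN3 and TAF1A rose and POLR1A and UBTF fell, and 4 were higher and 4 lower without DMSO 3. Over all genes 7.22% were higher and 7.69% lower with all libraries, and 27.5% and 27.7% without DMSO 3.

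Among 14 genes of mTORC1, its regulators and targets and the LARP family, RPTOR, TSC2, EIF4EBP1 and MLST8 fell and none rose, at a median of -0.13. Without DMSO 3 there were 4 higher and 7 lower. The list mixes genes that act for and against mTORC1, so its median is not a measure of mTORC1 activity. RPTOR, the mTORC1 scaffold, had 88.3, 91.6 and 83.2 CPM with DMSO and 65.1, 63.2 and 63.4 CPM with erianin, without overlap, and a log2 fold change of -0.46 ± 0.07 (edgeR adjusted p = 0.00915), and LARP1 had -0.15 ± 0.07 (edgeR adjusted p = 0.17, and -0.14 ± 0.04 without DMSO 3, edgeR adjusted p = 0.00328). Of 7 ribosomal protein chaperones BCCIP rose, and of 12 ribosome quality control genes TCF25 fell by 0.66 on the log2 scale. Without DMSO 3 these lists had 1 higher and 5 lower, and 4 higher and 3 lower. These counts stand beside 7.22% of all genes higher and 7.69% lower with all libraries, and 27.5% and 27.7% without DMSO 3. EEF1B2, EIF2S3, EIF3L, EIF2S1, EIF4A2, EIF1AX, RRN3, TAF1D, RPTOR, MLST8, TSC2, BCCIP and NOB1 were named because they passed the adjusted p threshold, after their values were seen.

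**Figure D5:**
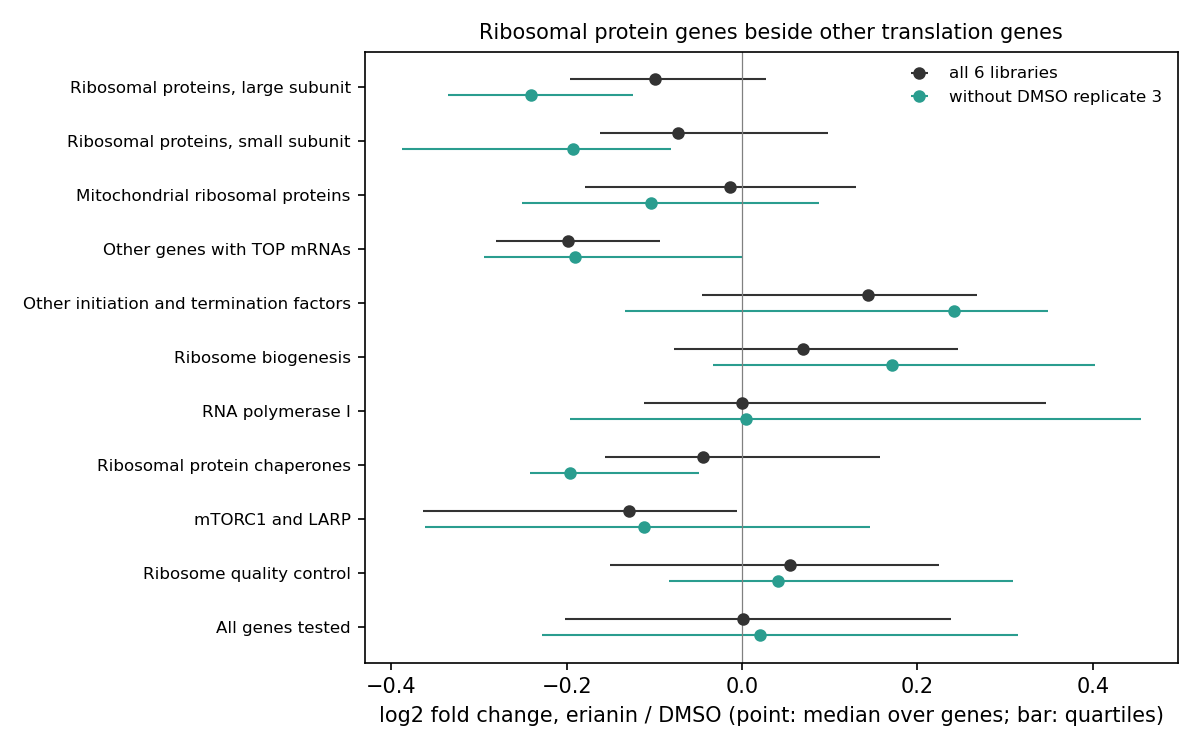
Median log2 fold change of erianin against DMSO (x axis, point) with the quartiles over genes (bar) for each gene list (y axis), with all 6 libraries and without DMSO replicate 3. Both ribosomal subunits lie left of 0 in both fits, at -0.10 and -0.07 and at -0.24 and -0.19, and ribosome biogenesis lies right of 0, at 0.07 and 0.17.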

How the data were processed

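RNA-seq libraries of CAL62 cells were made from TRIzol-extracted total RNA and read on a BGISEQ-500. The authors deposited raw counts per gene and TPM values. The submitters' processing notes name fastp 0.23.2, STAR 2.7.10, featureCounts 2.0.1, StringTie 2.2.1 and GRCh38. Strand setting, annotation release and treatment of multimapping reads were not given in the sources used here. Rows without an identifier (26480 of 65807, 0.00385% to 0.00515% of counts) were left out. Symbols came from GENCODE 29, exon overlaps too, and start sites from RefSeq.

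Counts were fitted with edgeR 4.0.16 (TMM, filterByExpr, quasi-likelihood test, group only, adjusted p under 0.05). CPM used the effective library sizes of that fit. Alternatives were DESeq2 1.42.0, which the study's methods name, other scalings and filters, limma 3.58.1 on log2(TPM + 1) of genes with a mean TPM of at least 1, a replicate block, GC and length offsets, and each library left out. In simulated counts over 12796 genes edgeR recovered 186 of 200 changed genes and called 3 unchanged ones. A call there also needed a log2 fold change over 0.5, which no member passed with all libraries. These numbers therefore do not give the error of the member calls, made at an adjusted p under 0.05 alone. Recovery of differences as small as those of the members, or with a library apart like DMSO replicate 3, was not tested. Replicate experiments are taken as separate cultures. Limits of precision come from 3 libraries a group, and the p-values of such small groups rest on the model fitted across genes.

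Named genes were the 5 highest and 5 lowest log2 fold changes per subunit at 10 CPM or more, members past both thresholds, the 5 highest by TPM, paralogs with parents, stalk genes, RPSA, RPS6, RPL5, RPL11, FAU, RACK1 and, in each neighbouring list, up to 4 genes past both thresholds and the 3 with the highest CPM. Some genes that the rule names are not reported here. The members and lists were chosen with earlier results of these data known.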

Additional observations from a re-analysis of the deposited data

How the results depend on the processing

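The 6 lower calls were 0 with limma on any of the TPM scales and 0 to 60 when 1 library was left out. They were 66 with a GC offset and DMSO replicate 3 left out, an alternative chosen after seeing the data. The share of all genes called lower in that offset fit is not given here. It was 27.7% without DMSO 3 and without the offset. Higher calls, 0 with all libraries, were 3 with upper-quartile factors, 1 with DESeq2, 3, 3 and 2 with limma on TPM values (pseudocount 1, pseudocount 0.1, and pseudocount 1 with no filter), 1 with the GC offset, 3 with the GC offset without DMSO 3, and 0 to 5 when 1 library was left out. With the fold threshold added, higher calls were 2 with upper-quartile factors, 2, 2 and 1 on the TPM scales, 1 with the GC offset with or without DMSO 3, and 0 to 1 when 1 library was left out; lower calls were 4 with the GC offset without DMSO 3 and 0 to 4 when 1 library was left out. The members' median of -0.10 was -0.05 with a replicate block, -0.07 with the block and the GC offset, and 0.15, 0.15 and 0.15 on the TPM scales. The difference between subunits and the share of counts moved by less than the spread between libraries in every alternative. That spread came mostly from DMSO 3, so the comparison cannot show that either was stable. The SD of the share was 1.61 in DMSO and 0.209 in erianin libraries. The share difference, -0.44 percentage points with all libraries, ran from -1.36 to 0.0773 when 1 library was left out.

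Neighbouring lists had 10 genes higher and 18 lower. These were 16 higher with DESeq2, and 30, 29 and 25 higher and 4, 4 and 4 lower on the TPM scales. They were 40 higher and 74 lower with the GC offset without DMSO 3, and 0 to 59 higher and 2 to 79 lower when 1 library was left out. Without DMSO 3 and without the offset 27.5% of all genes were higher and 27.7% lower, and the shares in the offset fit are not given here. Deviations of same-numbered libraries from their group means had correlations of 0.00138, 0.0253 and -0.0329. With DMSO 3 set apart from the other controls, these values cannot settle whether replicate numbers pair the libraries. With a replicate block 0 members were lower, and the lists had 1 higher and 8 lower, or 6 and 10 with the GC offset.

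Over the fits that left out 1 library, the log2 fold change ran from -0.13 to 0.37 for RPL39, -0.18 to 0.39 for RPL34, -0.13 to 0.55 for RPS12, -0.37 to 0.34 for RPLP1, -0.18 to 0.41 for FAU, -0.15 to 0.23 for AAMP and -0.20 to 0.17 for NPM1, with the sign turned without DMSO 3. Without DMSO 3 and with the GC offset it was -0.17 for RPL39, -0.32 for RPL34, -0.13 for RPL31, -0.18 for RPS3A, -0.13 for RPS12, -0.42 for RPLP1 and -0.11 for FAU. Of 1417 alternative values of named genes, 1199 kept their side of the threshold, 137 of them with the other sign but called in neither fit, 91 gained and 113 lost a call and 14 reversed. The cause was not tested. With 1 library deciding most calls, small differences between members were not resolved at this number of libraries.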
